A study of Mus musculus with 15 samples.

Results

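Microglia, the resident macrophages of the brain, were studied among single cells of the mouse striatum, a forebrain region rich in dopamine input. They are the cells that the authors' deposited table assigns to the class microglia: 895 of 5581 cells, from 15 mice and 3 treatments. The remaining 4686 cells were called astrocyte, neuron, neuroblast, oligodendrocyte, olig precursor or other in the same table. All mice were male C57BL/6J, an inbred strain, bought at 8 weeks of age and habituated for about 1 week. For 28 to 29 days, 5 mice received haloperidol from implanted pellets, 5 received olanzapine in food, and 5 were placebo mice, whose route of dosing is not given in the sources used here. Haloperidol, a typical antipsychotic, blocks dopamine D2 receptors. Olanzapine, an atypical one, also blocks several serotonin, histamine and muscarinic receptors. Drug and dosing route cannot be told apart. The striatum was sliced, triturated and depleted of dead cells, and cells of each mouse went into their own well for 10x Chromium 3′ libraries, so that a replicate is an animal. The comparisons ask what microglia expressed, and whether their share of cells or their gene expression differed by treatment.

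Microglia survey the tissue with motile processes, clear debris and synapses through complement and phagocytic receptors, and depend on signalling through the CSF1 receptor. Purine receptors such as P2ry12 guide their processes, and the fractalkine receptor Cx3cr1 receives a neuronal signal. In disease or after cell isolation they can lose such resting (homeostatic) genes and turn on lysosomal, lipid-handling, chemokine or immediate early genes.

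The unit was the UMI, a count of distinct RNA molecules. Microglia held a median of 3430 UMIs and 1464 genes per cell, against 2642 UMIs and 1328 genes in all other cells that passed a limit of 20% mitochondrial UMIs. That limit removed 0 microglia and 23 cells in all. Haloperidol mice 1 to 5 gave 7, 9, 63, 51 and 46 microglia, olanzapine mice 1 to 5 gave 20, 20, 290, 60 and 60, and placebo mice 1 to 5 gave 58, 18, 55, 49 and 89. Haloperidol 1 and 2 held fewer than 10 microglia and left the gene tests, which therefore used 3 haloperidol, 5 olanzapine and 5 placebo mice, with 59686 to 1204006 microglial UMIs per mouse. Olanzapine 3 alone gave 290 of the 895 microglia.

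The cells of placebo 5 overlapped with those of 2 other mice. Placebo 5 had 110 cell barcodes in common with placebo 3 and 101 with placebo 2, whereas no other pair of mice had more than 2 in common. Of its 514 cells, 210 carried the same barcode and the same class as a cell of placebo 2 or 3, and 42 of these were among its 89 microglia. The cell in placebo 5 held a median of 0.318 of the UMIs of its partner. Shared microglia of placebo 5 had a median of 1531 UMIs, against 3577 in its other microglia. Values below include these cells unless stated. As a check chosen after seeing the data, the shares, the counts of called genes and the lists that moved are also given without them.

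The genes that set microglia apart were those of macrophage identity. Csf1r, the receptor of the growth factor CSF1, stood at 3506 CPM (UMIs scaled to a common total) over all microglia and 5.14 CPM over all other cells. P2ry12, the ADP receptor of microglial processes, stood at 2971 and 6.17 CPM in the same order. Tmem119, a membrane protein that marks microglia apart from blood-derived macrophages, stood at 2523 CPM in microglia and 4.57 CPM in other cells. The cysteine protease gene Ctss reached 8336 CPM in microglia, against 18.6 CPM elsewhere. Each of the 7 fixed markers, C1qa and Cx3cr1 among them, was higher in the microglia than in the other cells of the same mouse in all 13 mice tested, and 894 of 895 cells carried at least 2 of them. The classes were made from the same RNA, so these values check the label and carry no test.

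Among genes of at least 100 CPM in microglia, the 30 with the highest ratio to other cells began with Ly86, which encodes MD-1, the partner of the toll-like receptor homologue RP105. Ly86 stood at 2004 CPM in microglia and 2.12 CPM in other cells, and 97.1% of microglia had at least 1 UMI of it. The 3 chains of complement C1q followed: C1qa at 9794 CPM against 15.8, C1qb at 9734 against 15.8 and C1qc at 8181 against 13.2. Receptors made up much of the rest. They included the chemokine receptor Cx3cr1 (1474 against 2.57 CPM), the Fc receptor Fcgr3 (1676 against 3.34 CPM) and the lipid-sensing receptor Trem2 (2679 against 6.75 CPM) with its signalling adaptor Tyrobp (3236 against 14.6 CPM). The transcription factor gene Spi1, which encodes PU.1, the master regulator of myeloid cells, stood at 568.1 CPM against 1.16. The chemokine genes Ccl3 (1008 against 2.19 CPM) and Ccl12 (339 against 0.450 CPM) were also among the 30. Unlike C1qa, found in 99.8% of microglia, Ccl3 was found in 49.8% and Ccl12 in 38.0%.

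**Figure D1:**
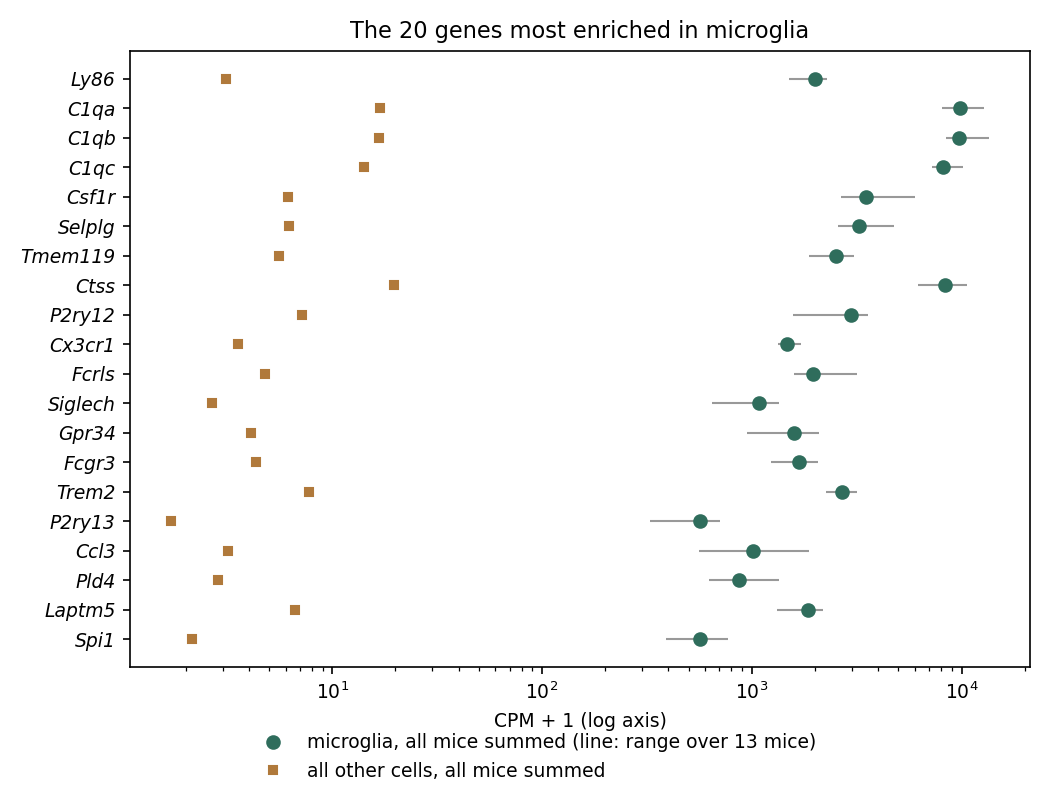
CPM (plus 1, log axis) of the 20 genes with the highest ratio of microglia to other cells. Circles are all microglia summed, lines run over the 13 mice with at least 10 microglia, and squares are all other cells summed; Ly86 at 2004 CPM and C1qa at 9794 CPM lie far right of their squares at 2.12 and 15.8 CPM.

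Because these genes are high together, their promoters are shown with the letters bound by PU.1. RefSeq promoters (build GRCm38.p6, 250 bases before to 50 after the start) were matched for 21 of the 30 genes, with 22 promoters. The purine-rich core GAGGAA, read on either strand, was present in 17 of 22 (77.3%), against 28.3% of all 32851 promoters. The longer form GAGGAAGT, which contains that core, was present in 6 of 22 (27.3%), against 3.20% of all promoters. A match is a description of the letters and does not show binding. Of the 6, 3 are printed 5′ to 3′ on the strand of the gene, with the longer form or its reverse complement ACTTCCTC in capitals: cathepsin S (chr3:95526536-95526835, plus strand), a C1q chain (chr4:136892865-136893164, minus strand) and phospholipase D4 (chr12:112760405-112760704, plus strand).
Ctss: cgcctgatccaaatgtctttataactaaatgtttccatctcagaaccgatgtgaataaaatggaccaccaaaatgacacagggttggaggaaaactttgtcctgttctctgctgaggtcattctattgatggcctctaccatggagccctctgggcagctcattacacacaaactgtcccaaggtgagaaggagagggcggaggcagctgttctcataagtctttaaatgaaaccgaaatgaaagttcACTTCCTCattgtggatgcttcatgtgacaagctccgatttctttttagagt
C1qc: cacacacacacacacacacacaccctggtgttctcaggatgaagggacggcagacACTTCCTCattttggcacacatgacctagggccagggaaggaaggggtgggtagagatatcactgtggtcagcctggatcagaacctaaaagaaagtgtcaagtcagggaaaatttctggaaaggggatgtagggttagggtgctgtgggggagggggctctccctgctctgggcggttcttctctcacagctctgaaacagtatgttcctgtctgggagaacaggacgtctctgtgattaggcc
Pld4: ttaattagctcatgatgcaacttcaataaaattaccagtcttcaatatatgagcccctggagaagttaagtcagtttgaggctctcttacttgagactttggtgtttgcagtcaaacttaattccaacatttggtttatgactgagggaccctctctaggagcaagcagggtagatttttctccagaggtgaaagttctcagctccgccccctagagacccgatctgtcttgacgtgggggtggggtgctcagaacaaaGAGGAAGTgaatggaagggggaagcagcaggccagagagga
The capitals of Ctss begin 2 bases before the transcription start, those of C1qc 195 bases before it, and those of Pld4 just after it.

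By level, protein-degradation and complement genes were among the leading genes of microglial RNA, beside genes of other kinds. Cst3, the protease inhibitor cystatin C, was the most abundant gene at 80329 CPM, against 11236 CPM in other cells. Next came Malat1 (36675 against 99367.5 CPM) and Tmsb4x, of the actin and motility list (15574 against 3217 CPM). Ribosomal protein genes such as Rps29 (7484 against 2096 CPM) were high as well. The lysosomal protease genes Ctsd (11054 against 330 CPM) and Lgmn (4818 against 140 CPM) and the C1q chains were also among the most abundant. Of 30 lysosome genes, 26 were more than 2-fold higher in microglia than in other cells and 1 was more than 2-fold lower. All 20 homeostatic genes were more than 2-fold higher, with a median level of 1529 CPM. These levels are counts per gene from a 3′ kit and are not divided by gene length.

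Lists of activated states were uneven. Of 24 disease-associated genes in the table, 15 were more than 2-fold higher than in other cells and 4 lower. The 15 included Ctsd, B2m (3385 against 252 CPM), Cd68 (722 against 8.17 CPM), Lyz2 (470 against 7.46 CPM) and Cd52 (250 against 4.44 CPM). Other genes of the list were near 0 in microglia: Gpnmb at 0 CPM, Spp1 at 0.933 CPM, Axl at 0.933 CPM, Lgals3 at 2.80 CPM and Cst7 at 10.3 CPM. Cst7 still counted among the 15, since it was at 0 CPM in other cells. For Gpnmb, 0 of 895 cells allows a share of cells with a UMI of up to 0.335%. Apoe, which encodes the lipid carrier apolipoprotein E, stood at 1267 CPM in microglia and 11128 CPM in other cells, where astrocytes held 34533 CPM. Its per-mouse level in microglia ran from 466.1 to 4123 CPM after scaling between mice, and how much of it came from free astrocyte RNA was not tested.

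Immediate early and chemokine genes were high in these dissociated cells. Jun (3389 against 794 CPM), Fos (2565 against 500 CPM) and Atf3 (703 against 9.52 CPM), transcription factor genes induced within minutes of stimulation, were seen in 88.3%, 79.1% and 57.8% of microglia. Of 26 genes in the list of ex vivo activation and immediate early genes, 24 were more than 2-fold above other cells. Those cells are all other classes pooled, and single classes came near or above microglia for some genes. In the class called oligodendrocyte, Jun stood at 3771 CPM, Fos at 2357 CPM and Fosb at 710 CPM, with Fosb at 218 CPM in microglia. Klf2 stood at 1675 CPM in the class called other, against 499 CPM in microglia. Atf3 did not exceed 63.4 CPM in any other class. Of 19 chemokine and cytokine genes, 15 were above: Ccl4 stood at 425 CPM, Il1a at 110 CPM and Tnf at 98.6 CPM, against 1.16, 0.193 and 0 CPM in other cells. Interferon response genes were low, with a median of 6.37 CPM over 20 genes, and 5 of 20 were more than 2-fold above other cells. Among antigen presentation genes, the class I genes H2-D1 and H2-K1 stood at 739 and 362 CPM. Of the class II pathway, the peptide-loading genes H2-DMa and H2-DMb1 stood at 256 CPM (52.8% of cells) and 135 CPM (36.4%), Cd74 at 139 CPM (11.3%) and the surface chain gene H2-Ab1 at 18.7 CPM (2.79%).

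The receptors that bind the drugs were scarce in microglia. Drd2, the dopamine D2 receptor, was found in 6 of 895 microglia (0.670%, exact 95% interval 0.246 to 1.45) and in 22.5% of neurons, which had a median of 3324 UMIs against 3430 in microglia. Drd1, the D1 receptor, was found in 2 microglia (0.223%) and in 34.5% of neurons. The serotonin receptor genes Htr2a and Htr2c were each found in 1 microglial cell, against 6.23% and 27.9% of neurons. At 0 cells, which allows up to 0.335%, were Drd4, Drd5, Htr1a, Htr7, Chrm3, Adra1a and Adra1b. The other 4 genes found in 1 cell were Htr6, Hrh1, Adra2a and Chrm1. Intervals and limits cover counting error only and refer to cells with a UMI.

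The histamine H2 receptor gene Hrh2 was found in 17 microglia of 8 mice (1.90%, exact 95% interval 1.11 to 3.02) and in 0.236% of other cells. None of the receptor genes named here had enough counts in microglia for a test between treatments. Drd3, Htr2b and Chrm4 were not analysed here.

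Other cell types left traces. Border macrophages, which line vessels and meninges, would carry Mrc1, Pf4 and Cd163: at least 2 border markers were seen in 7 of 895 microglia (0.782%). Stab1, the most frequent of them, was seen in 29.2% of microglia at 108 CPM. No cell had 2 monocyte or neutrophil markers, of which 2 were in the table. The T cell gene Trac, the neuroblast gene Dcx and the cycling genes Mki67, Birc5 and Ccnb2 were at 0 in all microglia, and 4 cells (0.447%) carried 2 cell cycle markers. Other members of these lists were seen. Cd79b, of the lymphocyte list, was seen in 11.5% of microglia at 35.8 CPM, against 0 CPM in other cells. Of 3 lymphocyte markers, at least 1 was seen in 104 microglia and 2 in 2. Hmgb2, of the cell cycle list, was seen in 24.5% at 93.3 CPM, against 322 CPM in other cells. At least 1 neuroblast marker was seen in 56 microglia (6.26%). At least 2 of 10 neuronal markers were found in 173 microglia (19.3%), led by Pcp4 at 201 CPM, against 1867 CPM in other cells. At least 2 of 8 astrocyte markers were found in 80 cells (8.94%) and at least 2 of 8 oligodendrocyte markers in 43 (4.80%).

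Summed over its list, each marker set had overlapping ranges between treatments. Neuronal markers ran from 285 to 624 CPM with haloperidol, 134 to 467 CPM with olanzapine and 257 to 550 CPM with placebo. Astrocyte markers ran from 111 to 175 CPM with haloperidol, 117 to 407 CPM with olanzapine and 91.0 to 234 CPM with placebo. Border macrophage markers ran from 104 to 163 CPM with haloperidol, 99.3 to 251.3 CPM with olanzapine and 39.0 to 142 CPM with placebo. Red cell markers were at 0 CPM in all 3 haloperidol mice and reached 116 CPM with olanzapine and 122 CPM with placebo. The part of such RNA in the gene results was not tested.

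Clustering of the 895 microglia alone gave 5 sub-clusters, which stay unnamed. Sub-cluster 0, the biggest with 381 cells and a median of 4832 UMIs, had 6 ribosomal protein genes among its 10 leading genes, such as Rpl29 (1157 against 676 CPM in the other microglia), and also Tpt1 (1818 against 1117 CPM). Sub-cluster 1 (211 cells) had 1977 UMIs per cell and was led by genes such as Slc38a10 (190 against 66.9 CPM) and Tmem173, which encodes the DNA-sensing adaptor STING (338 against 137 CPM). These leading genes are a description, since the clusters were built from them.

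Sub-cluster 2 held cells with high chemokine and immediate early genes. Its 182 cells came from all 15 mice and had among their leading genes Ccl7, Pf4, Hspb1, Dusp2, Gem, Ccl4 (882 against 305 CPM), Atf3 (1415 against 517 CPM), Ccl3 (1988 against 751 CPM) and Ccrl2. Within sub-cluster 2, Ccl7 and Pf4 were each seen in 2.75% of cells, against 52.7% for Ccl4, 82.4% for Atf3 and 73.1% for Ccl3. The border macrophage genes Mrc1, Cd163 and Pf4 were also higher in it than in the other microglia. It made up 15.9%, 13.7% and 21.7% of microglia in haloperidol 3 to 5, 10.0% to 22.4% in olanzapine mice and 18.0% to 38.9% in placebo mice, and the ranges overlapped. Sub-cluster 3 (86 cells, median 1584 UMIs) was led by genes of other cells, with Meg3 at 1275 against 12.9 CPM and Clu at 461 against 23.8 CPM, and held all 9 microglia that a doublet caller marked. Meg3 and Clu were each found in 9.30% of its cells, against 4.57% and 8.03% of the other microglia, so a few cells carried them. Sub-cluster 4 (35 cells) was led by H2-Eb1, Cd79a and Cd74, but these were found in 8.57%, 5.71% and 17.1% of its cells, so a few cells carried them. Of its cells, 33 were shared-barcode cells of placebo 5.

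**Figure D2:**
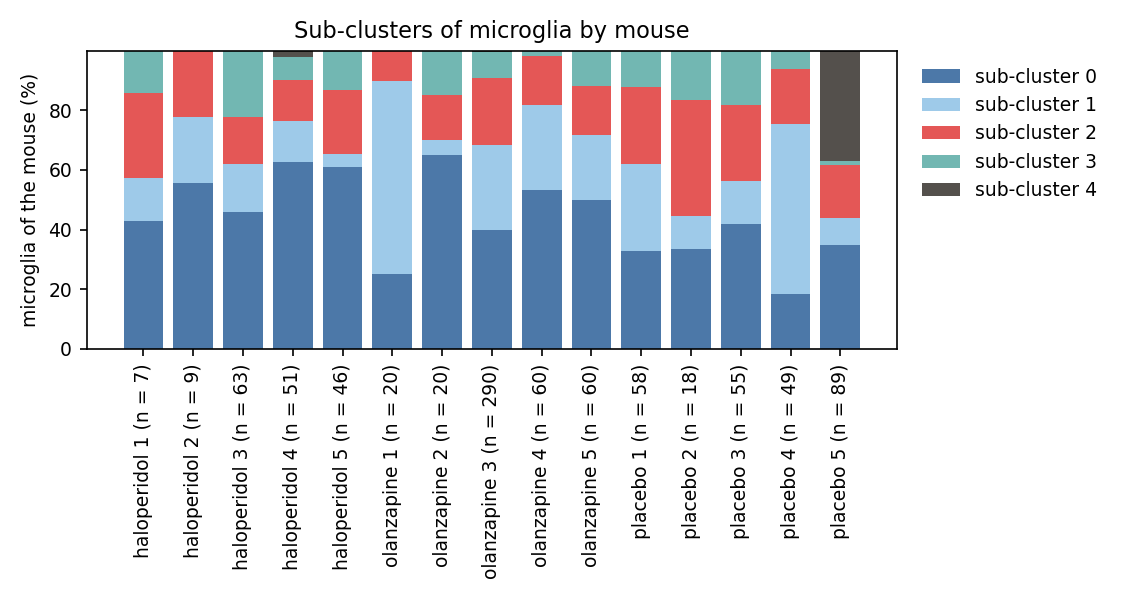
Share of each mouse's microglia (percent) in sub-clusters 0 to 4, with the number of microglia in parentheses. Sub-cluster 1 makes up 65% of olanzapine 1 and 57.1% of placebo 4, and sub-cluster 4 makes up 37.1% of placebo 5.

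The share of microglia among cells varied more between mice than between treatments. It was 5.65%, 9.68%, 10.1%, 12.7% and 20.4% in haloperidol 1 to 5. In olanzapine 1 to 5 it was 25.3%, 15.6%, 24.5%, 16.04% and 10.3%, and in placebo 1 to 5 it was 12.9%, 10.8%, 20.2%, 14.3% and 17.4%. The ranges of the 3 treatments overlapped. Haloperidol mice averaged 11.7% ± 5.46, olanzapine mice 18.4% ± 6.39 and placebo mice 15.1% ± 3.71 (SD over 5 mice in each group).

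No difference in this share passed the test. It was -3.44 percentage points for haloperidol minus placebo (exact two-sided permutation p = 0.262), 3.23 for olanzapine minus placebo (p = 0.357, same exact test) and -6.68 for haloperidol minus olanzapine (p = 0.119, same exact test). Adjusted over the 12 tests of this family (4 measures and 3 comparisons) each had p = 0.929, where the smallest unadjusted p that 5 against 5 mice allow by exact permutation is 0.00794. Without the shared-barcode cells the share in placebo 5 was 15.6%, and the differences were -3.08, 3.60 and -6.68 in the same order. A share of captured cells also depends on how the other cells survived dissociation. Median UMIs per microglial cell averaged 3122 ± 457 with haloperidol (n = 3), 3491 ± 630 with olanzapine (n = 5) and 3200 ± 798 with placebo (SD, n = 5), and the mitochondrial share averaged 1.59% ± 0.0683, 1.59% ± 0.261 and 1.40% ± 0.391 in the same groups. Their differences had adjusted exact permutation p of 0.929 or above.

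**Figure D3:**
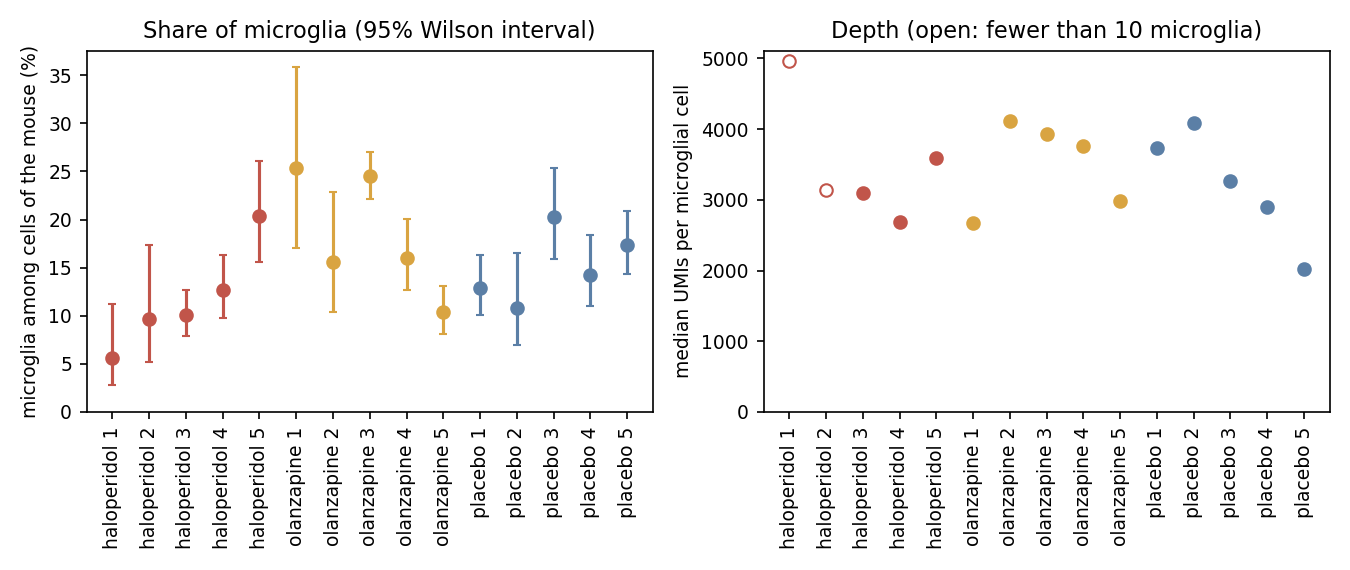
Left, microglia as a share of each mouse's cells (percent) with 95% Wilson intervals, which cover counting error only; right, median UMIs per microglial cell by mouse. Shares run from 5.65% in haloperidol 1 to 25.3% in olanzapine 1, and placebo 5, at 2023 UMIs, has the lowest median depth.

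Between haloperidol and placebo, 3086 genes were tested in microglia and 0 passed an adjusted p of 0.05 (0% called, edgeR quasi-likelihood test; DESeq2 also called 0). At an unadjusted p under 0.05 there were 147 genes (4.76%), 72 higher (2.33%) and 75 lower (2.43%), and DESeq2 had 87. The genes named here are therefore given as values that did not pass. Without the shared-barcode cells of placebo 5, edgeR also called 0 genes in each of the 3 treatment comparisons. CPM per mouse below are edgeR values after TMM scaling over the 3086 tested genes. Those given with the interaction test are instead scaled to the total of all genes, without TMM. The values of a gene therefore differ between these 2 places. The 3 mice were haloperidol 3, 4 and 5.

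Rgs2, which encodes a regulator that shuts off G protein signalling (chromosome 1, 143999338 to 144004161, GRCm38), had the smallest p. It stood at 404, 649 and 546 CPM with haloperidol, against 1131, 1101, 837, 1161 and 801 CPM with placebo. The 2 groups did not overlap. The log2 fold change was -0.92 ± 0.22 (SE, 3 against 5 mice, edgeR adjusted p = 0.301), and olanzapine mice spanned 667 to 1259 CPM. Groups that did not overlap in this direction were found for 52 of 3086 genes (1.69%). Over all alternatives the adjusted p of Rgs2 lay above 0.05.

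Psmb5, the chymotrypsin-like catalytic subunit of the proteasome (chromosome 14, 54614119 to 54618022), came next. It stood at 89.2, 112 and 66.6 CPM with haloperidol, against 174, 214, 246, 143 and 169.5 CPM with placebo. These groups did not overlap either, and the log2 fold change was -1.08 ± 0.26 (SE, edgeR adjusted p = 0.301). The other proteasome genes did not share this size: 13 of 37 were higher and 24 lower, with a median of -0.10. Psmd2 was at -0.81 ± 0.37 and Psmc1 at 0.74 ± 0.33.

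Rgs1, another regulator of G protein signalling, averaged 221 ± 93.1 CPM with haloperidol and 365 CPM with placebo (log2 fold change -0.77 ± 0.25). Tlr2, the toll-like receptor for bacterial lipoproteins, stood at 36.7, 44.8 and 33.3 CPM with haloperidol, against 99.9, 71.5, 64.4, 115 and 56.5 CPM with placebo, with no overlap (-1.09 ± 0.39). Slc9a9, an endosomal sodium-proton exchanger, was at -1.22 ± 0.39. Arglu1, Cog8, H1f0 and B430010I23Rik were also among the 10 with the smallest p. Those after Psmb5 had an edgeR adjusted p of 0.959.

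On the higher side, Rpl12, a protein of the large ribosomal subunit, stood at 1039, 926 and 1039 CPM with haloperidol, against 510, 672, 784, 401 and 735 CPM with placebo, and the groups did not overlap (0.69 ± 0.22). Tpt1, the translationally controlled tumour protein, averaged 2368 ± 511 CPM with haloperidol and 1555 CPM with placebo (0.61 ± 0.20). Atf4, the transcription factor of the integrated stress response, averaged 238 ± 25.3 CPM with haloperidol and 154 CPM with placebo (0.65 ± 0.24). Maf1, a repressor of RNA polymerase III, was at 0.71 ± 0.25, and the co-chaperone Dnaja2 at 0.91 ± 0.28. Fkbp1a, Ppm1m, Rpl7, Ccdc107 and Rsrp1 completed the 10, all at an edgeR adjusted p of 0.959. Higher values with no overlap were found for 70 of 3086 genes (2.27%).

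**Figure D4:**
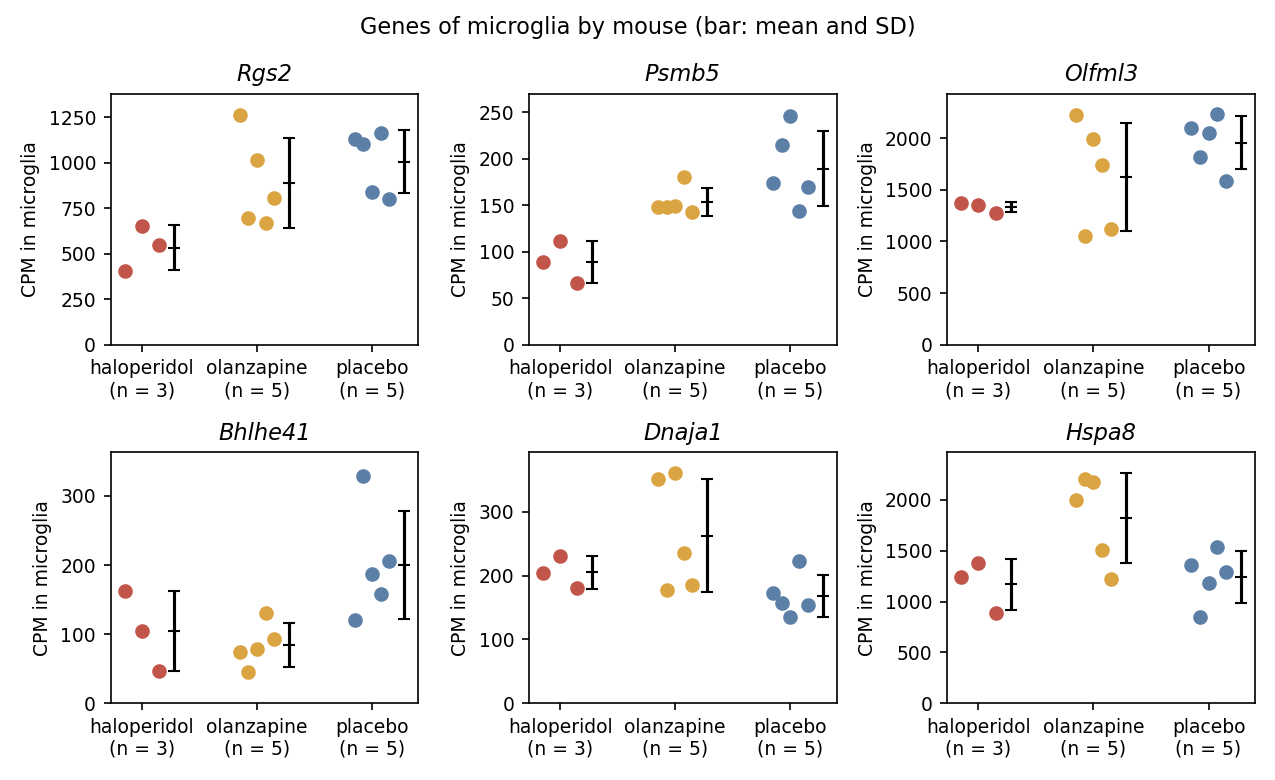
Scaled CPM in microglia of 6 genes, a point for each mouse, with bars for the mean and SD in haloperidol (n = 3), olanzapine (n = 5) and placebo (n = 5) mice. Haloperidol mice lie below all placebo mice for Rgs2, Psmb5 and Olfml3, while olanzapine and placebo mice overlap for Dnaja1 and Hspa8.

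Ribosomal protein genes leaned higher with haloperidol. Of 82 tested, 80 had a positive log2 fold change, with a median of 0.24, against 48.8% positive and a median of -0.01 over all 3086 genes. None of the 82 passed. They ran from -0.11 for Rps27rt to 0.69 for Rpl12, and 9 had no overlap between groups on the higher side. The median was 0.32 without the shared-barcode cells and 0.10 (66 of 82 positive) when haloperidol 1 and 2 were kept in. It was 0.14 (71 of 82) without placebo 4. Sub-cluster 0, which was led by such genes, made up 46.0%, 62.7% and 60.9% of microglia in haloperidol 3 to 5, against 32.8%, 33.3%, 41.8%, 18.4% and 34.8% in placebo 1 to 5. The value of placebo 5 includes its 42 shared-barcode microglia, of which 4 were in sub-cluster 0, so its other microglia had a higher share. Olanzapine mice spanned 25% to 65%, with a ribosomal median of 0.01 against placebo. Whether sub-cluster 0 or cell quality had a part in the ribosomal values was not tested.

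Homeostatic genes leaned lower. Of 20, 16 had a negative value, with a median of -0.22 (-0.14 without haloperidol 3). Olfml3, a secreted protein of resting microglia (chromosome 3, 103722222 to 103738001), stood at 1370, 1351 and 1279 CPM with haloperidol, against 2103, 1816, 2048, 2237 and 1587 CPM with placebo, and the groups did not overlap (-0.56 ± 0.20, edgeR adjusted p = 0.959). Fcrls, an Fc receptor-like gene of microglia, stood at 1774, 1911 and 1978 CPM with haloperidol, against 2614, 2588, 2159, 3520 and 1957 CPM with placebo, with an overlap of 1 mouse on each side (-0.44 ± 0.18). The fructose transporter gene Slc2a5 was at -0.72 ± 0.27 and the ADP receptor gene P2ry13 at -0.44 ± 0.21. The defining receptor P2ry12 stood at 1753, 3859 and 3743 CPM with haloperidol and 2797 to 3979 CPM with placebo, so 1 of 3 haloperidol mice was low.

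Of 29 lysosome genes, 4 were higher and 25 lower with haloperidol, with a median of -0.16. Of 10 complement genes 2 were higher, with a median of -0.07, but this was -0.25 without haloperidol 3 and 0.01 with 6 higher without haloperidol 5. The 22 ex vivo activation and immediate early genes had a median of -0.18 with 2 higher, which became -0.06 with 8 higher without haloperidol 3 and -0.31 without haloperidol 4. In that list Nfkbia, the feedback inhibitor of NF-kappa B, was at -0.46 ± 0.20.

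The remaining lists held few or mixed values with haloperidol. Of 17 disease-associated genes 7 were higher (median -0.11), of 13 chemokine and cytokine genes 5 (median -0.14), of 12 antigen presentation genes 4 (median -0.10), of 19 phagocytic and immune receptor genes 6 (median -0.14) and of 17 CSF1 and TGF beta pathway genes 6 (median -0.13). Of 10 purinergic and ion channel genes 3 were higher (median -0.09), of 13 regulators of G protein signalling 6 (median -0.02), of 23 actin and motility genes 11 (median -0.02), of 15 cytosolic chaperones 8 (median 0.02), of 7 lipid and cholesterol genes 3 (median -0.11) and of 12 mitochondrially encoded genes 8 (median 0.13). Of 3 interferon response genes 2 were higher (median 0.07). In each of these lists 0 members passed. Leaving out 1 mouse turned some of these medians, to 0.03 for purinergic genes without haloperidol 3, to 0.06 for regulators of G protein signalling without haloperidol 5 and to -0.11 for chaperones without haloperidol 4. Without the shared-barcode cells the chemokine and cytokine median was -0.21 and that of chaperones -0.01.

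Between olanzapine and placebo, 0 of 3086 genes passed in microglia (0% called by edgeR, and 0 by DESeq2). At an unadjusted p under 0.05 there were 101 genes (3.27%), 47 higher (1.52%) and 54 lower (1.75%), and DESeq2 had 50. The smallest adjusted p by edgeR was 1.00. Groups without overlap were found for 6 genes on the higher side (0.194%) and 7 on the lower side (0.227%).

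The gene with the smallest p was Bhlhe41, a transcriptional repressor of the circadian clock that is also high in resident macrophages (chromosome 6, 145858243 to 145865558). It stood at 74.1, 44.4, 78.5, 130 and 93.0 CPM with olanzapine, against 121, 329, 187, 158 and 205 CPM with placebo. Olanzapine 4 lay above placebo 1, and the other mice of the 2 groups were apart. The log2 fold change was -1.08 ± 0.28 (SE, 5 mice each, edgeR adjusted p = 1.00).

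Dpysl2, which encodes a microtubule-binding protein of process growth (chromosome 14, 66802864 to 66868688), stood at 167, 207, 204, 185 and 118 CPM with olanzapine, against 242, 300.3, 328, 301 and 272 CPM with placebo. The groups did not overlap, at a log2 fold change of -0.68 ± 0.19. Arglu1, a splicing-associated gene, averaged 66.1 ± 22.7 CPM with olanzapine and 134 CPM with placebo (-0.84 ± 0.25). Acot13, Dcxr, Abcd2, Mpc2, Ak1, Hcst and mt-Atp8 completed the 10 on the lower side. Abcd2 imports fatty acids into peroxisomes and Mpc2 is a subunit of the mitochondrial pyruvate carrier.

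Chaperone genes leaned higher with olanzapine. Of 15 tested, 13 were positive, with a median of 0.23, against 49.4% positive and a median of -0.004 over all genes, and 0 passed. Hspa8, the constitutive Hsc70 chaperone (chromosome 9, 40800984 to 40810087), stood at 2000, 2207, 2181, 1504 and 1222 CPM with olanzapine, against 1357, 844, 1182, 1534 and 1295 CPM with placebo. The lowest 2 olanzapine mice lay within the placebo range and the other 3 above it (0.53 ± 0.18). Its co-chaperone Dnaja1 (chromosome 4, 40722150 to 40737149) stood at 352, 178, 360.3, 236 and 186 CPM with olanzapine, against 174, 157, 135, 222 and 154 CPM with placebo (0.69 ± 0.21). The mitochondrial chaperonin Hspd1 was at 0.46 ± 0.26. The list stood at 0.02 with haloperidol, and both comparisons use the same placebo mice.

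Among other higher values with olanzapine, Foxp1, a forkhead transcription factor (chromosome 6, 98925338 to 99522721), stood at 74.1, 74.1, 64.7, 70.2 and 68.2 CPM with olanzapine, against 36.8, 14.3, 11.7, 64.5 and 10.3 CPM with placebo. The groups did not overlap, although placebo 4 came within 1 CPM of the lowest olanzapine mouse (1.28 ± 0.39). Srsf11, a splicing factor, averaged 215 ± 26.2 CPM with olanzapine and 146 CPM with placebo (0.55 ± 0.20), again with no overlap. Apbb1ip, an adaptor that activates integrins through Rap1, averaged 475 ± 64.4 CPM with olanzapine and 334 CPM with placebo (0.46 ± 0.18). Sumf1, Ik, Cd84, Nipbl and Fbrsl1 completed the 10.

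Complement and actin genes had mostly negative values with olanzapine. Of 10 complement genes 1 was higher, with a median of -0.10, and C3ar1, the C3a receptor, was at -0.48 ± 0.22. Of 23 actin and motility genes 3 were higher, with a median of -0.06, from -0.47 for Rac1 to 0.05 for Arpc2. Homeostatic genes were higher in 4 of 20 (median -0.07), with Fcrls at -0.35 ± 0.16. Chemokine and cytokine genes were higher in 5 of 13 (median -0.22), with Ccl3 at -0.49 ± 0.20 and Ccl2 at 0.76 ± 0.37.

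The ribosomal list had no steady direction with olanzapine. It was higher in 45 of 82 (median 0.01), in 71 of 82 without the shared-barcode cells (0.10) and in 19 of 82 without placebo 4 (-0.08). Mitochondrially encoded genes were higher in 10 of 12 (median 0.18) and purinergic and ion channel genes in 6 of 10 (0.04). Lysosome genes were higher in 13 of 29 (-0.02), proteasome genes in 16 of 37 (-0.03), disease-associated genes in 5 of 17 (-0.05), early response genes in 9 of 22 (-0.09) and phagocytic receptors in 9 of 19 (-0.004). CSF1 and TGF beta pathway genes were higher in 8 of 17 (-0.10), regulators of G protein signalling in 6 of 13 (-0.06), antigen presentation genes in 7 of 12 (0.01), lipid genes in 2 of 7 (-0.13) and interferon genes in 2 of 3 (0.04). Leaving out placebo 4 turned the medians of lysosome genes (to 0.04), CSF1 and TGF beta pathway genes (to 0.04) and phagocytic receptors (to 0.06). Without the shared-barcode cells the medians were -0.11 for homeostatic, -0.15 for complement, -0.13 for G protein regulators and -0.02 for antigen presentation genes. Cd74, the class II chaperone, was at -2.11 ± 1.21. It stood at 24.8 to 147 CPM with olanzapine, against 52.6, 2045, 41.0, 35.8 and 200.3 CPM with placebo, so placebo 2 lay far above every other mouse.

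**Figure D5:**
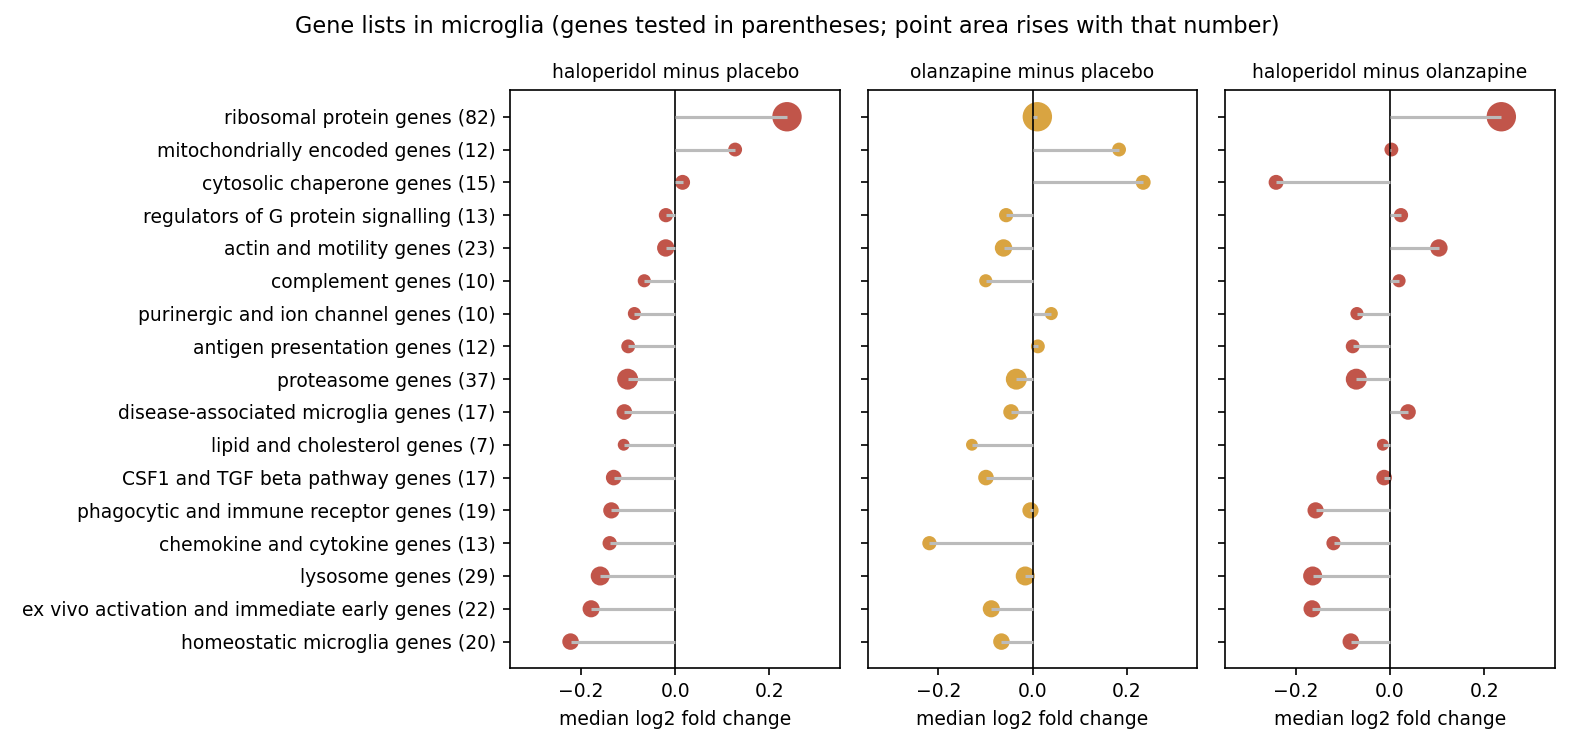
Median log2 fold change over the tested genes of each list in microglia, for haloperidol minus placebo, olanzapine minus placebo and haloperidol minus olanzapine; lists with fewer than 5 tested genes are not drawn. Ribosomal protein genes sit at 0.24 in the left and right panels and at 0.01 in the middle one, and chaperones at 0.23 in the middle panel.

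Between the drugs, 0 of 3086 genes passed (0% called by edgeR, and 0 by DESeq2). At an unadjusted p under 0.05 there were 171 genes (5.54%), 91 higher (2.95%) and 80 lower (2.59%) with haloperidol, and DESeq2 had 89. The smallest edgeR adjusted p was 0.814. Haloperidol mice lay above all olanzapine mice for 76 genes (2.46%) and below all of them for 43 (1.39%).

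Ube2n, a ubiquitin-conjugating enzyme, stood at 189, 224 and 187 CPM with haloperidol, against 74.1, 148, 105, 125 and 118 CPM with olanzapine, with no overlap (0.81 ± 0.23, edgeR adjusted p = 0.814). Nlrp3, the sensor of the inflammasome, stood at 78.7, 67.2 and 120 CPM with haloperidol, against 18.5, 14.8, 39.7, 65.2 and 62.0 CPM with olanzapine (0.98 ± 0.35). These groups did not overlap, but placebo mice spanned 36.0 to 89.4 CPM. Nfkbia stood at 1228, 1642 and 1112 CPM with haloperidol, against 2130, 2192, 2384, 2125 and 1513 CPM with olanzapine, where 1 mouse of each group overlapped (-0.64 ± 0.20). Tlr2 was at -1.18 ± 0.37, Rgs2 at -0.73 ± 0.22, Hspa8 at -0.63 ± 0.21 and Psmb5 at -0.80 ± 0.26.

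The other leading genes between the drugs had mixed roles. Higher with haloperidol were Ppp1r14b (1.22 ± 0.36), Bola2, the nucleosome-binding gene Hmgn2 (0.81 ± 0.26), Eloc, Nme1, Pdcd5, Cox14 and Fkbp1a. Lower were Dapp1 (-1.12 ± 0.34), the glutamine synthetase gene Glul (-0.62 ± 0.21), Ddx39b and Tcf4 (-0.88 ± 0.30). Lyz2, the lysozyme gene of macrophages, was at 0.70 ± 0.25. The chemokine gene Ccl12 was at 0.80 ± 0.32 and Ccl2 at -1.12 ± 0.45.

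As lists, haloperidol minus olanzapine gave 79 of 82 ribosomal genes higher (median 0.24, against 50.3% higher and a median of 0.002 over all genes), 4 of 29 lysosome genes (-0.16) and 4 of 15 chaperones (-0.24). Homeostatic genes were higher in 5 of 20 (-0.08), early response genes in 7 of 22 (-0.17), phagocytic receptors in 7 of 19 (-0.16) and actin genes in 15 of 23 (0.10). When haloperidol 1 and 2 were kept, the medians were 0.10 (69 of 82) for ribosomal, -0.04 for early response and 0.01 for actin genes. Without haloperidol 3 they were -0.02 for homeostatic genes (-0.24 without haloperidol 4), -0.07 for early response, -0.07 for phagocytic and 0.04 for actin genes. This comparison shares its haloperidol and its olanzapine mice with the comparisons to placebo, so the same directions are not separate evidence. The other lists of more than 1 tested gene had medians between -0.12 and 0.04.

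Whether a drug acted differently in microglia than in the rest of the striatum was tested as an interaction, with the mouse as a block, over 8092 genes. For haloperidol minus placebo 0 genes were called (0%; 469 or 5.80% at an unadjusted edgeR p under 0.05), and for haloperidol minus olanzapine 0 (0%; 427 or 5.28%). DESeq2 was not run on this test. For olanzapine minus placebo edgeR called 10 genes (0.124%; 513 or 6.34% unadjusted), 6 with a higher and 4 with a lower response in microglia. The response is the log2 fold change of the drug in microglia minus that in all other cells of the same mice.

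St3gal6, a sialyltransferase gene (chromosome 16, 58468125 to 58524243), spanned 251.3 to 451 CPM in microglia with olanzapine and 290 to 356 CPM with placebo. In other cells it stood at 17.01, 38.4, 33.7, 15.8 and 41.1 CPM with olanzapine, against 66.5, 114, 64.0, 73.6 and 67.0 CPM with placebo, with no overlap. The difference of responses was 1.27 ± 0.26 (SE, edgeR adjusted p = 0.00676). Srgn, a proteoglycan of secretory granules, spanned 17.01 to 46.9 CPM in other cells with olanzapine and 53.9 to 176 CPM with placebo, and 117 to 201 CPM in microglia with olanzapine and 132 to 364 CPM with placebo (1.28 ± 0.28, edgeR adjusted p = 0.0105).

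Gngt2 (1.70 ± 0.38, edgeR adjusted p = 0.0153), a G protein gamma subunit, spanned 168 to 468 CPM in microglia with olanzapine and 215 to 416 CPM with placebo. In other cells it spanned 1.86 to 6.09 CPM with olanzapine and 5.05 to 32.9 CPM with placebo. Cd34 (1.499 ± 0.35, edgeR adjusted p = 0.0339), a sialomucin of vascular cells, spanned 16.8 to 46.9 CPM in other cells with olanzapine and 53.2 to 122 CPM with placebo. Tgm2 (1.95 ± 0.42, edgeR adjusted p = 0.00983), a transglutaminase, spanned 43.2 to 151 CPM in microglia with olanzapine and 35.1 to 45.05 CPM with placebo, and in other cells 5.59 to 23.5 CPM with olanzapine and 21.0 to 84.4 CPM with placebo. With astrocytes in place of all other cells, 4 genes were called, among them Hbb-bs and Slc1a2, while Hist1h2ap and Zc3h6 had no value and the other 6 were not called. The makeup of the other cells differed between mice, and its part in these calls was not tested.

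The sixth higher gene and the 4 lower ones rested on few microglial UMIs or on 1 library. Slc1a2, the astrocyte glutamate transporter (3.75 ± 0.75, edgeR adjusted p = 0.00783), had 66 UMIs in olanzapine microglia, 53 of them in olanzapine 3, and 2 in placebo microglia. Hbb-bs, a haemoglobin gene (-5.25 ± 0.60, edgeR adjusted p = 9.28e-11), reached 3125 CPM in the other cells of olanzapine 3. In other cells it stood at 0 to 7.46 CPM in the other olanzapine mice and 0 to 55.7 CPM with placebo. It was too low to be tested without olanzapine 3. Hist1h2ap was at -3.03 ± 0.61 (edgeR adjusted p = 0.00676) and Zc3h6 at -2.92 ± 0.68 (edgeR adjusted p = 0.0327). Arpp21, a striatal neuron gene, was at -1.64 ± 0.35 (edgeR adjusted p = 0.00983), with 0 to 66.8 CPM in microglia and 293 to 1048 CPM in other cells with olanzapine, against 27.5 to 83.4 and 280 to 549 CPM with placebo.

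Without the shared-barcode cells of placebo 5, 4 of the 10 were called: Arpp21, Hbb-bs, Slc1a2 and St3gal6. Leaving out olanzapine 3 gave 41 calls and olanzapine 1 gave 18. Leaving out placebo 2 gave 6 and olanzapine 4 gave 5. St3gal6 was called without olanzapine 3 as well, and was not called without olanzapine 4 or placebo 2. Rgs2 had a response of -1.16 ± 0.31 for haloperidol minus placebo (edgeR adjusted p = 0.445), at 364 to 582 CPM in microglia and 37.3 to 55.5 CPM in other cells with haloperidol, against 685 to 1042 and 31.5 to 53.9 CPM with placebo. H2-K1, a class I gene, had the smallest p for haloperidol minus placebo at 1.18 ± 0.28 (edgeR adjusted p = 0.350), and was called without olanzapine 3. It was followed by Alad (2.54 ± 0.66), Gngt2 (1.67 ± 0.44) and Arglu1 (-1.29 ± 0.35). For haloperidol minus olanzapine the smallest p were those of Cx3cr1 (2.73 ± 0.72), Akap9, Ttyh1, Dbp and Ntrk2, each at an edgeR adjusted p of 0.805. In microglia Cx3cr1 averaged 1573 CPM with haloperidol and 1468 CPM with olanzapine, and its difference came from other cells, at 0.359 and 4.04 CPM. Ttyh1 and Ntrk2 had 0 UMIs in haloperidol microglia, against 25 and 32 in olanzapine microglia, which held more UMIs in total. Both were at 0 CPM in microglia of olanzapine 1 and 2. In olanzapine 3 to 5 Ttyh1 stood at 17.4, 4.51 and 16.7 CPM and Ntrk2 at 19.1, 9.02 and 38.9 CPM.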

How the data were processed

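The authors' deposited table holds UMI counts per gene and cell, with a class, drug and mouse for each cell; per the submitters' processing notes it was made with Cell Ranger, Seurat and mm10, with no versions or settings given. Cells over 20% mitochondrial UMIs were left out, and doublets were not removed (Scrublet marked 81 cells, 9 of them microglia). Counts of microglia were summed per mouse. Mice with at least 10 microglia entered edgeR 4.0.16 (filterByExpr, TMM, robust quasi-likelihood F test, 3 treatments in 1 fit, R 4.3.3) with Benjamini-Hochberg adjustment within a comparison and a threshold of 0.05. The same model with the mouse as block compared microglia with other cells. DESeq2 1.42.0 was an alternative. Shares and depth were compared by exact permutation over mice. Sub-clusters used scanpy 1.11.5 and leidenalg 0.10.2 (resolution 0.5). Scripts were tested on simulated data. Total microglial UMIs limit precision per mouse, and intervals cover counting error only. Coordinates are from GENCODE (GRCm38, the mm10 build) and promoters from RefSeq.

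Named genes were the markers, the 30 genes with the highest ratio to other cells among those of at least 100 CPM, called genes filled to 10 in each direction by smallest p (interaction: up to 10 called, filled to 5), up to 4 members of each list by smallest p, the drug target receptors, and the 10 leading genes of a sub-cluster. Other list members are examples chosen after their values were seen. Some genes that the rule names are not reported here. The cells, lists and tests were chosen with earlier results of these data known. Alternatives changed the normalization, filters, cell minimum, compared cells and mice included, 1 at a time.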

Additional observations from a re-analysis of the deposited data

Results flagged for a closer look

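Single mice stood apart from their group for 6 of 108 groups of named genes and 2 groups of cell measures, and chance flags about 1 in 20 groups. Dapp1 stood at 74.1 CPM in olanzapine 1, against 115 to 130 CPM in the other olanzapine mice. Dnaja2 stood at 55.6 CPM in olanzapine 1, against 100 to 112 CPM in the others of its group, and at 186 CPM in placebo 2, against 66.8 to 73.6 CPM. Eloc stood at 181 CPM in placebo 3, against 129 to 143 CPM. Psmb5 stood at 180.4 CPM in olanzapine 4, against 143 to 149 CPM, and Rsrp1 at 566 CPM there, against 326 to 352 CPM. With each cell thinned to 1000 UMIs, the share of microglia with at least 2 border macrophage markers was 0.707% in olanzapine 3 and 1.85% in placebo 3, and 0 in the other mice of those groups. Unthinned, it was 1.03% in olanzapine 3 and 1.67% in olanzapine 5, so olanzapine 3 did not stand apart, and 1.82% in placebo 3.

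The edgeR interaction test called 10 of 8092 genes (0.124%) for a response to olanzapine that differed between microglia and other cells. The differences were -5.25 for Hbb-bs, -3.03 for Hist1h2ap, -2.92 for Zc3h6, -1.64 for Arpp21, 1.27 for St3gal6, 1.28 for Srgn, 1.499 for Cd34, 1.70 for Gngt2, 1.95 for Tgm2 and 3.75 for Slc1a2 on the log2 scale. Of these 10, 4 were called without the shared-barcode cells of placebo 5, and 2 with astrocytes as the other cells. The value of Hbb-bs rested on the other cells of olanzapine 3, at 3125 CPM.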

How the results depend on the processing

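No gene of microglia was called in any comparison when any 1 mouse was left out, and the shares of microglia kept their direction. With no filter on low counts 2 genes were called for olanzapine minus placebo and 5 for haloperidol minus olanzapine, most of their UMIs being from olanzapine 3. With cells not thinned, the difference in border macrophage share was 1.015 percentage points for haloperidol minus placebo, 0.177 for olanzapine minus placebo and 0.838 for haloperidol minus olanzapine, and over single mice left out it ran from -0.370 to 0.141 for olanzapine minus placebo. The mitochondrial share for haloperidol minus olanzapine was -0.0392 without the mice numbered 1 to 4 and -0.0842 to 0.0766 with 1 mouse left out. Median UMIs ran from -373 to 142.5 for haloperidol minus placebo and from -3.95 to 511 for olanzapine minus placebo, which was -20.4 without the shared-barcode cells. The difference between microglia and other cells gave 1, 4 and 2 calls with astrocytes as the other cells (haloperidol minus placebo, olanzapine minus placebo, haloperidol minus olanzapine), where Gngt2 stood at -0.0138. For olanzapine minus placebo it gave 6 with at least 20 microglia per mouse, 4 without shared-barcode cells and 5 to 41 with 1 mouse left out. With 1 mouse left out the other comparisons gave 0 to 2, with 2 in each without olanzapine 3. The cause was not tested. No paired analysis was possible because the labels number the mice across groups, which share no replicate number. Few microglia per mouse limit genes of low count.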
